A study of Mus musculus with 6 samples.

Results

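The genes of polyamine and hypusine synthesis were followed in immature NK cells with intact or floxed Myc. These are the 10 genes Odc1, Amd1, Srm, Sms, Sat1, Azin1, Oaz1, Oaz2, Dhps and Dohh, out of 25690 gene symbols in the tables. They were taken as a named list, with earlier results of these data known. The RNA came from CD27SP NK cells of mouse BM, which were sorted as NK1.1+, CD27+, CD11b- and negative for CD3, among other markers. The control mice were Ncr1cre Myc wt/wt, and the mice with the deletion were Ncr1cre Myc fl/fl, named Myc wt/wt and Myc fl/fl in what follows. Mice of both genotypes carried the Cre recombinase at the Ncr1 locus on a C57BL/6 background and differed in whether Myc was floxed, so that Myc could be deleted only in cells that had begun to express NKp46, the product of Ncr1. Each genotype had 3 libraries, which the labels number 1, 2 and 4. The labels do not say whether the libraries of a genotype came from separate mice, and p-values therefore measure only the spread between these libraries. In sorted bulk RNA, fewer cells of a type and less RNA per cell cannot be told apart.

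Polyamines (putrescine, spermidine and spermine) are small cations that bind nucleic acids and ribosomes, and dividing cells make them from ornithine and decarboxylated S-adenosylmethionine. Ornithine decarboxylase (Odc1) makes putrescine, S-adenosylmethionine decarboxylase (Amd1) provides the aminopropyl donor, and spermidine synthase (Srm) and spermine synthase (Sms) add the aminopropyl groups. Antizymes (Oaz1, Oaz2) send Odc1 to the proteasome, the antizyme inhibitor Azin1 counters them, and the acetyltransferase Sat1 marks spermidine and spermine for export or breakdown. Spermidine is also the substrate for hypusine, an amino acid found in the translation factor eIF5A, which Dhps and Dohh form in consecutive steps. Odc1 is a textbook target of Myc.

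The libraries were read first for genotype and cell type. Estimated counts summed to 8101219 in Myc wt/wt replicate 1 and to between 54550907 and 64962491 in the other 5 libraries, so each member has the least support in that shallow library (154 counts for Dohh, 8417 for Oaz1). Myc itself had normalized counts (CPM, counts scaled to library size after TMM correction) of 164.3 to 200.5 with the intact gene and of 61.5 to 76.5 with the floxed one (log2 fold change −1.44, adjusted p = 0.00189, edgeR, and −1.304 with an adjusted p of 0.0105 without replicate 1). In Myc fl/fl libraries Myc RNA thus remained at 37.0% of its Myc wt/wt mean, and the differences below are not those of cells free of it. Summed CPM of 10 NK cell genes lay between 14660 and 15252 in Myc wt/wt and between 16731 and 17479 in Myc fl/fl libraries. In edgeR 0 of these 10 genes passed the threshold used below, 1 was lower and 2 were higher at an unadjusted p below 0.05, and DESeq2 called 1 lower. Markers of other BM cells moved with the genotype. Of 10 basophil and mast cell genes 8 were higher past the threshold (summed CPM 16.8 to 19.8 against 124.0 to 336.0), as were 4 of 9 tested neutrophil and granulocyte progenitor genes (85.5 to 139.1 against 537.6 to 893.1), 3 of 8 monocyte genes (1660 to 1867 against 2071 to 2373) and 1 of 8 erythroid genes (610.4 to 843.5 against 1256 to 1627). DESeq2 called 8, 7, 3 and 5 genes of these lists higher, and at an unadjusted p below 0.05 in edgeR 9, 8, 7 and 7 were higher. Single genes dominate some sums, as Ccr2 had 1417 to 1724 CPM in Myc wt/wt libraries and Car2 565.2 to 640.9 CPM, and neither passed (log2 fold changes 0.25 and −0.09). The globin gene Hbb-bs had 13.3 to 82.9 CPM in Myc wt/wt and 155.3 to 346.9 CPM in Myc fl/fl libraries (3.20, adjusted p = 0.0158, edgeR). For 5 tested B cell genes (4.55 to 8.37 against 11.9 to 15.02) and 7 T cell genes (280.6 to 560.0 against 333.7 to 429.1), edgeR and DESeq2 called 0, while 3 B cell genes and 3 T cell genes were higher and 1 T cell gene was lower at an unadjusted p below 0.05. Every defining marker had at least 1 count in some library. The part of these cells in the differences below was not tested.

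Among the 10 members, 1 fell past the threshold in Myc fl/fl NK cells. It was Srm, which makes spermidine from putrescine, and its level fell to 45.7% of that in Myc wt/wt NK cells. A gene had to reach an adjusted p under 0.01 and a log2 fold change of 0.5 or more in size. Of all 15474 genes tested, 0.872% were lower by this rule and 1.28% were higher. In edgeR, DESeq2 and limma-trend 0 members were higher past the threshold, and in edgeR 0 were higher at an unadjusted p below 0.05. At that unadjusted limit 2 members were lower, Srm and Amd1, where 10.2% of all genes were lower and 12.4% higher. The log2 fold changes of the 10 members were negative for 5 and positive for 5, with a median of −0.04, against a median of 0.01 over all genes tested. All Myc fl/fl libraries lay below all Myc wt/wt libraries for 4 members (Srm, Amd1, Sms and Oaz1), where 15.1% of all genes showed this order, and for 0 members was it the reverse, where 16.2% of all genes did. On the TPM scale, per transcript length, only Srm of these 4 kept the genotypes apart, where 10.9% of all genes were lower without overlap, and Sat1 was higher without overlap, where 19.2% of all genes were.

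**Figure D1:**
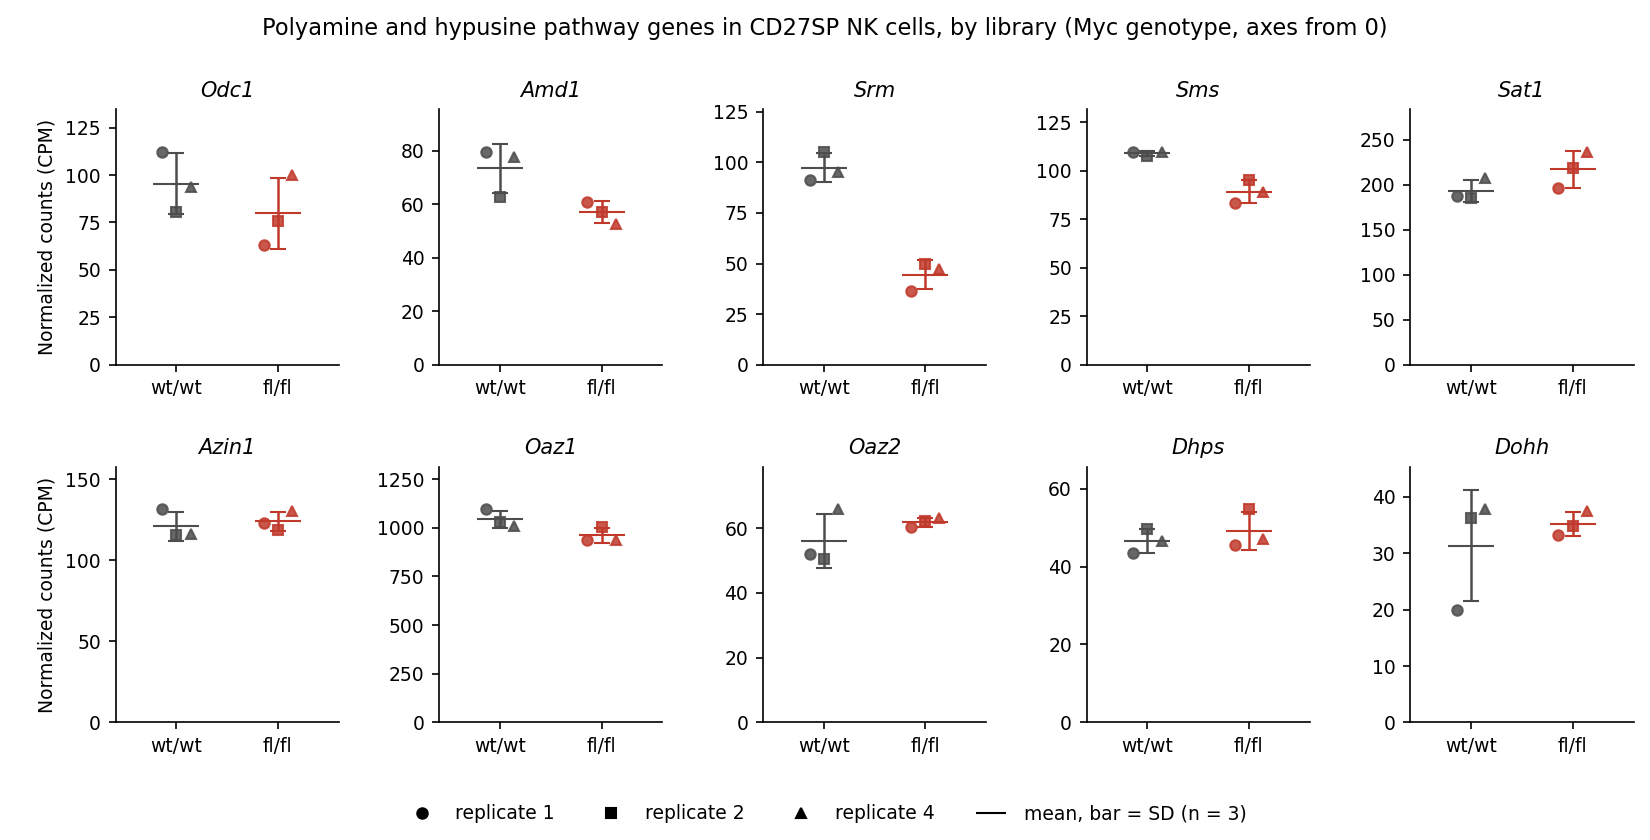
Normalized counts (CPM, vertical axis from 0) of the 10 members in each library, by genotype (horizontal axis), where the marker shape gives the replicate number and the bar the mean ± SD (n = 3). Srm lay between 91.3 and 105.2 CPM in Myc wt/wt and between 36.4 and 49.9 CPM in Myc fl/fl libraries, whereas Odc1, Sat1, Azin1, Oaz2, Dhps and Dohh overlapped between the genotypes.

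Srm (ENSMUSG00000006442.10, chromosome 4 of GRCm38 from 148591503 to 148594993) had 91.3, 105.2 and 95.4 CPM in Myc wt/wt libraries 1, 2 and 4. It had 36.4, 49.9 and 47.1 CPM in Myc fl/fl libraries 1, 2 and 4. The genotypes were far from overlapping, the highest Myc fl/fl library being well under the lowest Myc wt/wt library. The means were 97.3 ± 7.15 and 44.5 ± 7.12 CPM (SD, n = 3), which is a log2 fold change of −1.14 (adjusted p = 0.00287 in edgeR, standard error 0.14). The 95% interval ran from 0.37- to 0.56-fold. The distance did not shrink without the shallow library, where, in a fit without the replicate block, the log2 fold change was −1.19 (adjusted p = 0.0066, edgeR). Without both libraries of replicate 1 it was −1.05 and no longer passed (adjusted p = 0.0148, edgeR), and with offsets from effective transcript lengths it was −1.09 (adjusted p = 0.0136, edgeR). Of 3 annotated transcripts, the coding Srm-201 carried 90.7 to 94.3% of the gene's TPM in all 6 libraries, and its mean TPM was 118.1 in Myc wt/wt and 58.6 in Myc fl/fl libraries. No stretch of 31 bases of an Srm transcript was shared with a transcript of another gene, so its counts could not be divided with a near-identical copy.

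The other 3 enzymes of synthesis gave small differences that did not pass. Odc1 (chromosome 12, 17544794 to 17551505), the first enzyme of the pathway, had 112.2, 80.5 and 93.8 CPM in Myc wt/wt and 63.2, 76.0 and 100.0 CPM in Myc fl/fl libraries 1, 2 and 4. The genotypes overlapped, and in replicate 4 the Myc fl/fl library was the higher one. Its log2 fold change of −0.27 (adjusted p = 0.443 in edgeR, standard error 0.18) came with a 95% interval from 0.63- to 1.10-fold, so that a fall of the size seen for Srm lies outside it. Without replicate 1 the log2 fold change of Odc1 was 0.0050. Of the 31-base stretches of Odc1, 11.4% also occur in transcripts of AW146154, so part of its counts could be divided with that gene.

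Amd1 (chromosome 10, 40287458 to 40302186), which commits S-adenosylmethionine to polyamine synthesis, had 79.6, 62.8 and 77.7 CPM in Myc wt/wt and 60.9, 57.3 and 52.7 CPM in Myc fl/fl libraries. The genotypes did not overlap, although the gap between them was narrow. The log2 fold change was −0.36 (standard error 0.14), and p in edgeR was 0.0311 before and 0.169 after adjustment (adjusted p). Amd1 is uncertain in another way, because 81.9% of its 31-base stretches also occur in transcripts of its copy Amd2 (2.28 to 6.06 CPM). Summed with Amd2, the log2 fold change was −0.36 (adjusted p = 0.176, edgeR). Retained-intron transcripts took from 4.30 to 44.8% of the TPM of Amd1, with both extremes in libraries of replicate 1.

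Sms (chromosome X, 157443855 to 157492287), which turns spermidine into spermine, had 109.8, 107.5 and 109.5 CPM in Myc wt/wt and 83.4, 95.1 and 89.02 CPM in Myc fl/fl libraries. The genotypes did not overlap, and the Myc wt/wt libraries were nearly equal. Its log2 fold change was −0.29 (adjusted p = 0.230 in edgeR, standard error 0.13). The largest share of the TPM of Sms lay on a transcript annotated for nonsense-mediated decay (45.3 to 71.6%), and a coding transcript of 321 bases took between 0 and 35.7%. On the TPM scale, which divides by transcript length, the genotypes overlapped (79.9 to 84.3 TPM in Myc wt/wt, 71.9 to 90.6 TPM in Myc fl/fl libraries). With offsets from effective lengths the log2 fold change shrank to −0.10.

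**Figure D2:**
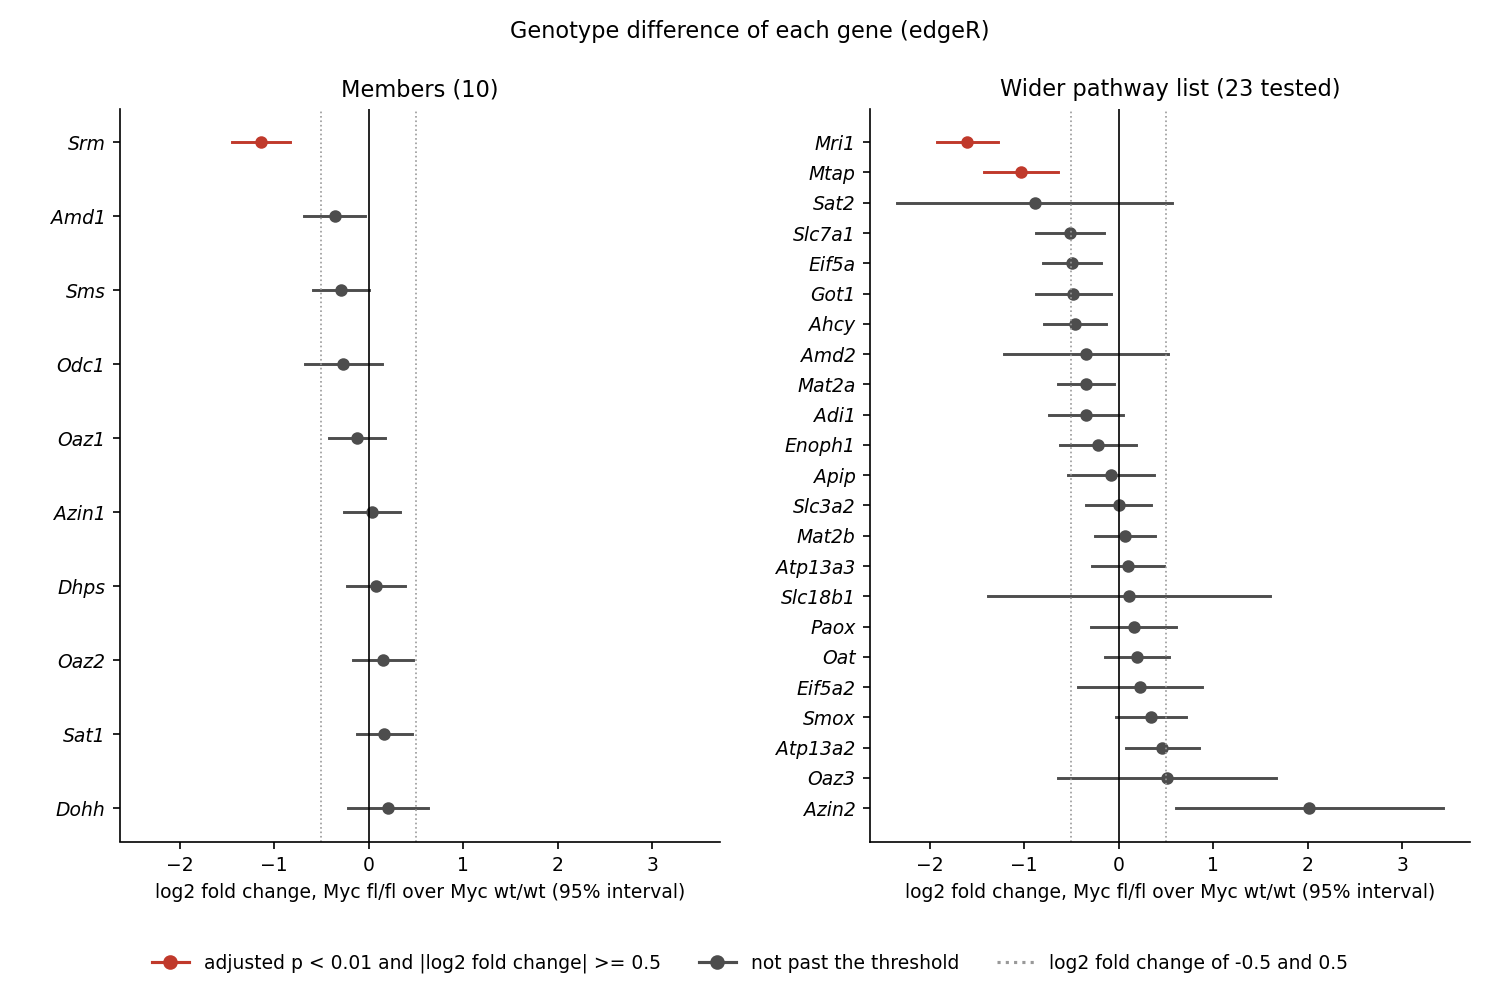
log2 fold change of each gene in Myc fl/fl relative to Myc wt/wt NK cells (horizontal axis) with its 95% interval from edgeR, for the 10 members on the left and for the 23 tested genes of the wider pathway list on the right, each row being a gene. Red marks the genes past the threshold in edgeR, which are Srm among the members and Mri1 and Mtap in the wider list, and the dotted lines stand at log2 fold changes of −0.5 and 0.5.

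Neither the regulators of Odc1 nor the catabolic enzyme Sat1 passed the threshold. Oaz1 (chromosome 10, 80826656 to 80829290) had 1094, 1028 and 1010 CPM in Myc wt/wt and 937.9, 1005 and 938.1 CPM in Myc fl/fl libraries. Its genotypes did not overlap by a narrow margin (log2 fold change −0.12, adjusted p = 0.664, edgeR). Oaz2 (chromosome 9, 65668001 to 65690300) ranged from 50.5 to 65.7 CPM in Myc wt/wt and from 60.3 to 63.0 CPM in Myc fl/fl libraries, which overlap (0.15, adjusted p = 0.604, edgeR). Azin1 (chromosome 15, 38487427 to 38519266) ranged from 115.7 to 131.2 and from 118.4 to 130.2 CPM and gave a log2 fold change of 0.04 (adjusted p = 0.918, edgeR). The sign of the Azin1 value changed without replicate 4 (−0.05). Sat1 (chromosome X, 155213132 to 155216449) had 188.0, 185.4 and 207.7 CPM in Myc wt/wt and 196.5, 218.3 and 236.8 CPM in Myc fl/fl libraries. It was higher in the Myc fl/fl library of each number, yet the genotypes overlapped (0.16, adjusted p = 0.524, edgeR).

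Both enzymes of hypusine formation overlapped between the genotypes as well. Dhps (chromosome 8, 85071757 to 85075162), which transfers the aminobutyl group of spermidine to a lysine of eIF5A, had 43.4, 49.7 and 46.4 CPM in Myc wt/wt and 45.6, 54.6 and 46.9 CPM in Myc fl/fl libraries (log2 fold change 0.08, adjusted p = 0.817, edgeR). Dohh (chromosome 10, 81384428 to 81388352), which hydroxylates that residue, had 20.0, 36.2 and 37.8 CPM in Myc wt/wt and 33.2, 34.8 and 37.5 CPM in Myc fl/fl libraries. The low value came from the shallow library, and the other 5 libraries were close to each other. Its log2 fold change of 0.20 (adjusted p = 0.593, edgeR) turned to −0.09 without that library and the replicate block. Dohh overlaps the readthrough gene Gm48551 on the same strand, with which it shares 46.2% of its 31-base stretches, and Dhps overlaps Wdr83 on the opposite strand by 128 bases in libraries whose kit does not mark strand. Over the 9 members other than Srm, log2 fold changes ran from −0.36 to 0.20, adjusted p from 0.169 to 0.918 in edgeR, and the 95% intervals together spanned 0.62- to 1.54-fold. The interval of Amd1, from 0.62- to 0.97-fold and not adjusted for the number of genes, left out no change, and those of the other 8 members held it.

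Levels were compared between genes per length, as TPM summed over transcripts. Oaz1 was by far the most abundant member, with 2508 ± 85.4 TPM in Myc wt/wt and 2482 ± 152 TPM in Myc fl/fl libraries (mean ± SD, n = 3), followed by Sat1 with 252.0 ± 12.9 and 294.9 ± 20.4 TPM. Srm was next in Myc wt/wt libraries with 127.4 ± 18.5 TPM (108.2, 145.1 and 128.9 in libraries 1, 2 and 4). These levels did not overlap with one another or with the next gene. Below them Sms, Odc1, Dhps and Azin1 lay between 59.3 and 84.3 TPM in Myc wt/wt libraries. Sms (79.9 to 84.3 TPM) was above Azin1 (59.3 to 79.3 TPM), while Odc1 and Dhps overlapped both. Oaz2, Dohh and Amd1 lay between 28.7 and 62.6 TPM, and each overlapped the gene above it. In Myc fl/fl libraries Srm had 63.1 ± 9.50 TPM (52.2, 69.5 and 67.6 in libraries 1, 2 and 4). It ranked 7 of 10 there, its range overlapping those of Odc1, Azin1 and Oaz2, while Amd1 stayed last in both genotypes at 33.7 ± 4.80 and 30.2 ± 5.06 TPM. These ranks rest on all annotated transcripts. On coding transcripts alone Srm ranked 3 of 10 in both genotypes (118.1 ± 18.5 and 58.6 ± 8.42 TPM), and Sms was last in Myc wt/wt and Amd1 in Myc fl/fl libraries.

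Ratios of TPM within a library set the members against each other without any scaling between libraries. The log2 ratio of Srm to Sms, the enzymes that make and use spermidine, was 0.44, 0.78 and 0.68 in Myc wt/wt and −0.80, −0.19 and −0.09 in Myc fl/fl libraries. It was above 0 in each Myc wt/wt library and below 0 in each Myc fl/fl library, with a difference of −0.99. On coding transcripts alone the log2 ratio of Srm to Sms was 3.02, 2.37 and 2.15 in Myc wt/wt and 0.14, 1.41 and 1.66 in Myc fl/fl libraries, above 0 in all 6 libraries, with a difference of −1.45. In estimated counts, without length correction, Srm was below Sms in all 6 libraries (5939 against 6064 in Myc wt/wt library 2). The crossing of 0 thus holds only with all annotated transcripts counted and corrected for length. The log2 ratio of Sat1 to Srm, of acetylation to synthesis, was 1.15, 0.78 and 1.05 against 2.41, 2.07 and 2.23, a difference of 1.24 without overlap. For both of these ratios the two-sided exact permutation test gave p = 0.1, the smallest value that 3 against 3 libraries allow, and p = 0.2 after adjustment over the 4 ratios. Since Srm stands in both, they do not count as separate results. The log2 ratio of Odc1 to Oaz1, the enzyme to its antizyme, overlapped (−5.06 ± 0.20 against −5.11 ± 0.36, SD, n = 3, exact permutation p = 0.9), as did that of Dhps to Dohh (0.87 ± 0.34 against 0.78 ± 0.15, SD, n = 3, exact permutation p = 0.8), and both had an adjusted p of 0.9.

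**Figure D3:**
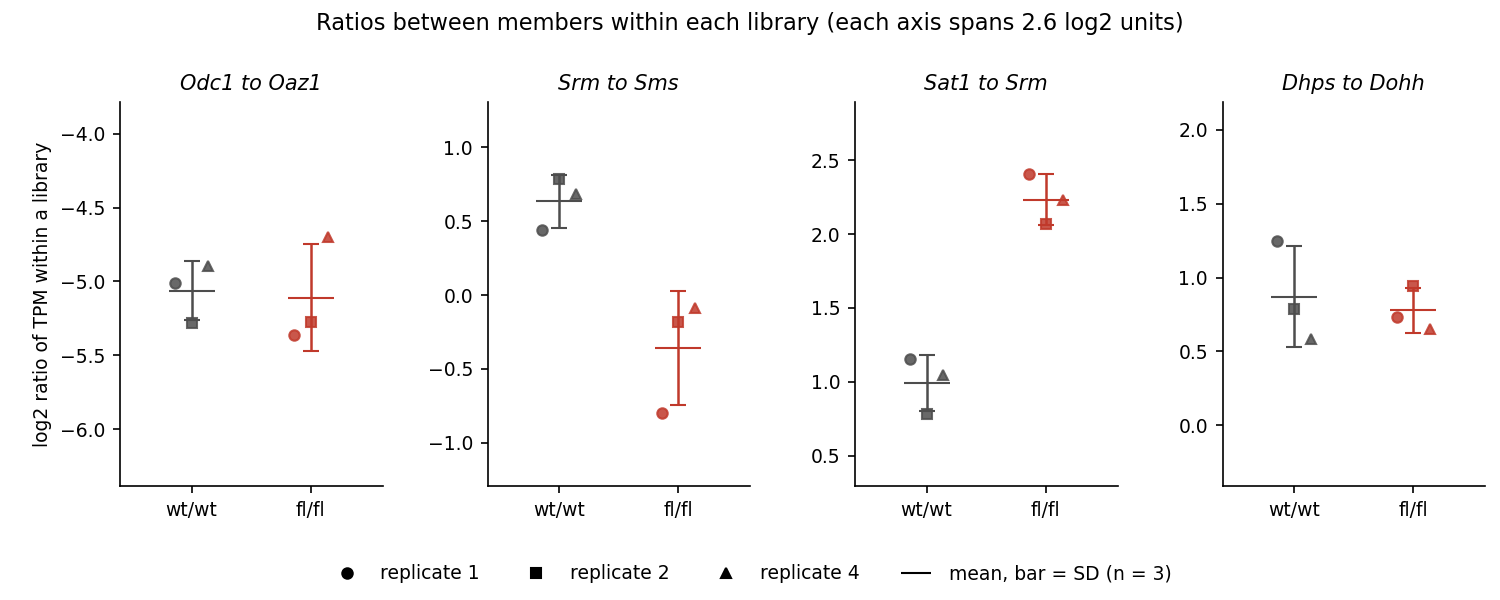
log2 ratio of the TPM of member pairs within each library (vertical axes, each spanning the same range) by genotype, where the marker shape gives the replicate number and the bar the mean ± SD (n = 3). Srm to Sms dropped from a mean of 0.63 to −0.36 and Sat1 to Srm went from 0.99 to 2.23 without overlap, while Odc1 to Oaz1 and Dhps to Dohh overlapped.

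The substrate of hypusine, eIF5A, was read from its own genes. Eif5a (chromosome 11, 69916714 to 69921958) had 1402, 1281 and 1274 CPM in Myc wt/wt and 881.5, 966.4 and 964.3 CPM in Myc fl/fl libraries. The genotypes were well apart, at 71.1% of the Myc wt/wt level, but the log2 fold change of −0.49 (standard error 0.14) missed the threshold, with an adjusted p of 0.0582 in edgeR. In DESeq2 the adjusted p of Eif5a, 0.00714, was under the limit, and only the log2 fold change of −0.495 fell narrowly short of 0.5 in size. Its homologue Eif5a2 (7.60 to 16.4 CPM) overlapped between the genotypes (0.22, adjusted p = 0.730, edgeR).

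Around the members, a wider list of 25 genes covered other polyamine enzymes, eIF5A, the supply of ornithine and S-adenosylmethionine, the salvage of methylthioadenosine, and polyamine transport. This list was written with earlier results of these data known, so its counts beside those of all genes only describe it. It had 23 tested genes, since Agmat (at most 2 counts in a library) and Otc (0 counts) had too few. In edgeR 2 of the 23 fell past the threshold, both of the salvage pathway, and 0 rose, where 0.872% of all genes were lower and 1.28% higher, while 7 were lower and 2 higher at an unadjusted p below 0.05, where 10.2% of all genes were lower and 12.4% higher. DESeq2 also called 2 lower and 0 higher genes (3.54% and 4.17% of all genes), and limma-trend 1 and 0 (0.504% and 0.931% of all genes). The median log2 fold change of the list was −0.08. Of the 23 genes, 8 had every Myc fl/fl library below every Myc wt/wt library and 3 had the reverse order, against the 15.1% and 16.2% of all genes. On the TPM scale 7 of the 23 were lower and 5 higher without overlap, where 10.9% and 19.2% of all genes were.

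Methylthioadenosine is the by-product that Srm and Sms release with each aminopropyl transfer, and salvage returns it to methionine. Mri1 (chromosome 8, 84249906 to 84257326), the isomerase of this pathway, had 101.5, 71.2 and 75.8 CPM in Myc wt/wt and 29.0, 25.4 and 26.6 CPM in Myc fl/fl libraries. The genotypes were far apart, at 32.6% of the Myc wt/wt level, and the log2 fold change was −1.60 (adjusted p = 0.000994 in edgeR, standard error 0.14). The Mri1 transcripts did not fall alike, as the retained-intron transcript held 37.9, 33.3 and 32.9% of the gene's TPM in Myc wt/wt and 22.9, 21.8 and 20.9% in Myc fl/fl libraries. On its coding transcripts alone the log2 fold change of Mri1 was −1.31 (adjusted p = 0.00644, edgeR).

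Mtap (chromosome 4, 89137122 to 89181081), the phosphorylase that takes methylthioadenosine into salvage, had 73.0, 53.7 and 54.8 CPM in Myc wt/wt and 26.3, 33.3 and 28.2 CPM in Myc fl/fl libraries. The genotypes did not overlap, and the highest Myc wt/wt value came from the shallow library. The log2 fold change was −1.03 (adjusted p = 0.00886 in edgeR, standard error 0.18). In edgeR without that library and the replicate block it was −0.90, with an adjusted p of 0.01 that lies just above the limit before rounding. It did not pass without replicate 1 (−0.82, adjusted p = 0.04, edgeR) or without replicate 4 (−1.09, adjusted p = 0.0146, edgeR) either, and passed in 8 of 16 alternative settings. The other 4 salvage genes also had negative log2 fold changes without passing, at −0.48 for Got1 (a transaminase with many other roles), −0.34 for Adi1, −0.22 for Enoph1 and −0.08 for Apip, with adjusted p from 0.141 to 0.869 in edgeR. The median of the 6 salvage genes was −0.41.

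**Figure D4:**
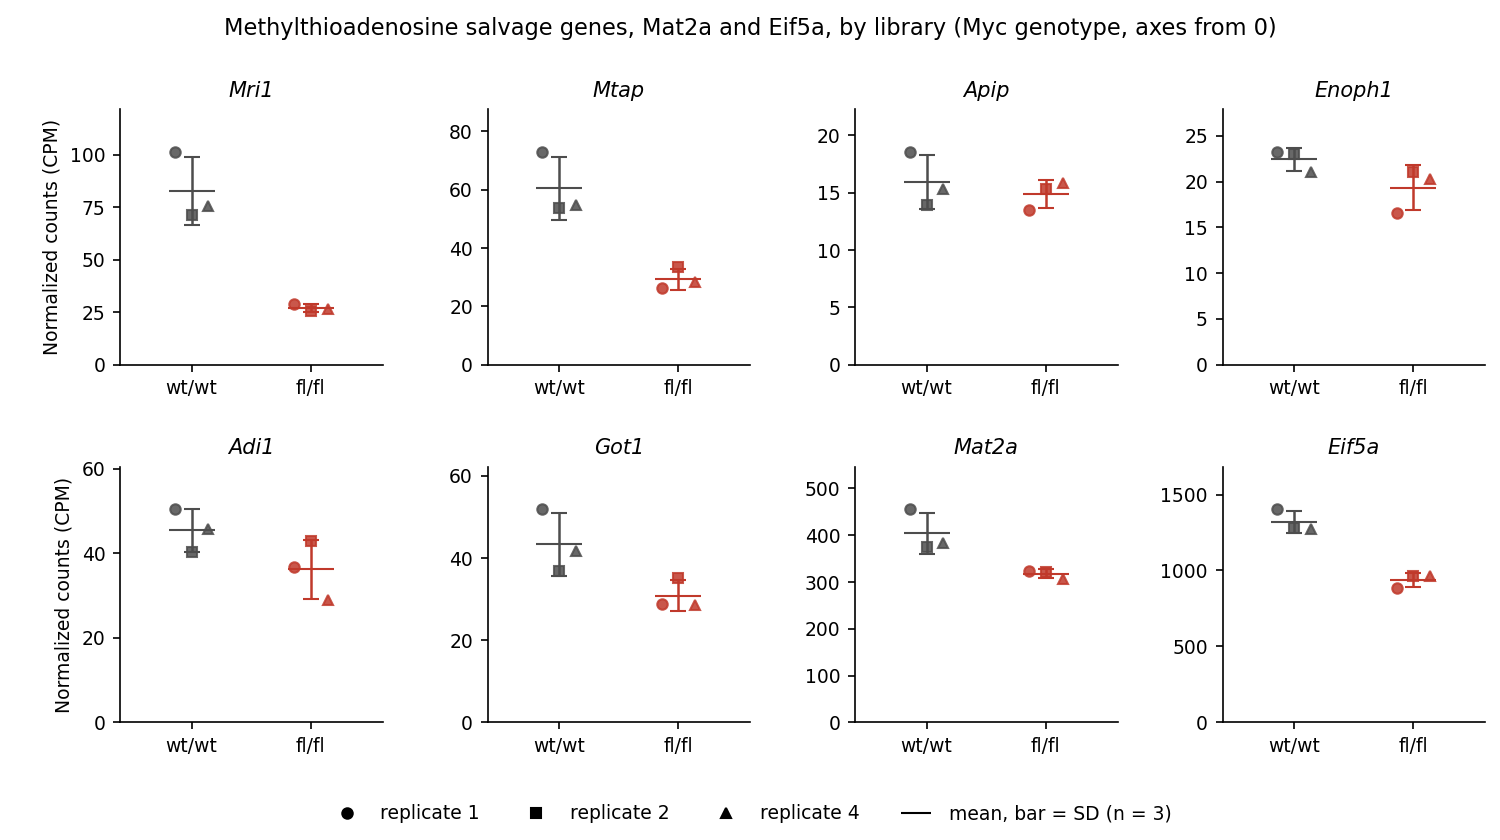
Normalized counts (CPM, vertical axis from 0) of the 6 methylthioadenosine salvage genes, of Mat2a and of Eif5a in each library, by genotype, where the marker shape gives the replicate number and the bar the mean ± SD (n = 3). Mri1 and Mtap, the only 2 of these 8 genes past the threshold in edgeR, lay at 25.4 to 29.0 and 26.3 to 33.3 CPM in Myc fl/fl libraries against 71.2 to 101.5 and 53.7 to 73.0 CPM in Myc wt/wt libraries.

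None of the remaining branches of the wider list had a gene past the threshold in edgeR or DESeq2, and at an unadjusted p below 0.05 in edgeR Mat2a, Ahcy and Slc7a1 were lower and Azin2 and Atp13a2 higher. For S-adenosylmethionine, Mat2a (375.2 to 455.0 CPM against 306.7 to 323.4 CPM), its synthetase, and Ahcy (39.8 to 46.0 against 27.0 to 35.5 CPM), which clears the spent methyl donor, were lower without overlap, with log2 fold changes of −0.34 and −0.46 and adjusted p of 0.158 and 0.0928 in edgeR. On the TPM scale Ahcy overlapped (20.4 to 26.9 against 16.2 to 20.5). Mat2b overlapped (0.07). For ornithine and arginine, the cationic amino acid transporter Slc7a1 ranged from 33.2 to 39.2 CPM in Myc wt/wt and from 23.2 to 29.0 CPM in Myc fl/fl libraries (−0.51, adjusted p = 0.0888, edgeR). Oat overlapped in CPM (0.20) and was higher without overlap in TPM (39.0 to 42.1 against 44.7 to 56.6).

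Among the other polyamine enzymes, the spermine oxidase Smox had 23.6, 21.4 and 24.4 CPM in Myc wt/wt and 26.1, 28.1 and 34.2 CPM in Myc fl/fl libraries. It was higher without overlap but did not pass (0.35, adjusted p = 0.258, edgeR). Paox overlapped in CPM (0.16) but was higher without overlap in TPM (8.36 to 14.1 against 16.1 to 17.2), and with offsets from effective lengths its log2 fold change was 0.53 (adjusted p = 0.219, edgeR). The homologues Azin2, Oaz3 and Sat2 had at most 64 counts in any library, and Azin2, at 0.07 to 0.44 CPM against 0.54 to 1.07 CPM, did not pass (2.02, adjusted p = 0.0871, edgeR). The transport genes Atp13a2, Atp13a3, Slc18b1 and Slc3a2 overlapped, with log2 fold changes of 0.46, 0.10, 0.11 and 0.0001.

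The members differed in how much of their signal lay on coding transcripts. Coding transcripts carried 98.9 to 99.5% of the TPM of Oaz1 and 77.6 to 100% of that of Dohh, beside the share of Srm given above. They carried 55.4 to 78.9% for Odc1, 56.5 to 66.3% for Sat1, 48.6 to 67.2% for Dhps and 41.7 to 51.4% for Azin1, the rest being annotated as retained introns, targets of nonsense-mediated decay or processed transcripts. For Dhps the coding share was higher in every Myc fl/fl library (58.9, 67.2 and 61.3%) than in any Myc wt/wt library (48.6, 57.0 and 57.5%). For Azin1 the share on nonsense-mediated decay transcripts was lower in every Myc fl/fl library (11.1, 19.8 and 19.1% against 21.9, 23.0 and 24.3%). The nonsense-mediated decay share of Sms was also lower without overlap (45.3, 58.0 and 60.1% against 71.6, 60.8 and 60.3%), and the retained-intron share of Oaz2 was higher (2.29, 3.57 and 2.85% against 0.87, 2.01 and 1.59%). These are the 4 of 28 shares of the members by transcript class that did not overlap, 2 higher and 2 lower in Myc fl/fl libraries, and 24 overlapped. Of 24245 such shares in 9234 tested genes with more than 1 class, 6.06% were higher and 5.26% lower without overlap. The shares were not tested, and with so few members their count is not read as a difference from other genes. The coding share in the shallow library was the highest or the lowest of all 6 libraries for every member other than Srm and Sat1.

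**Figure D5:**
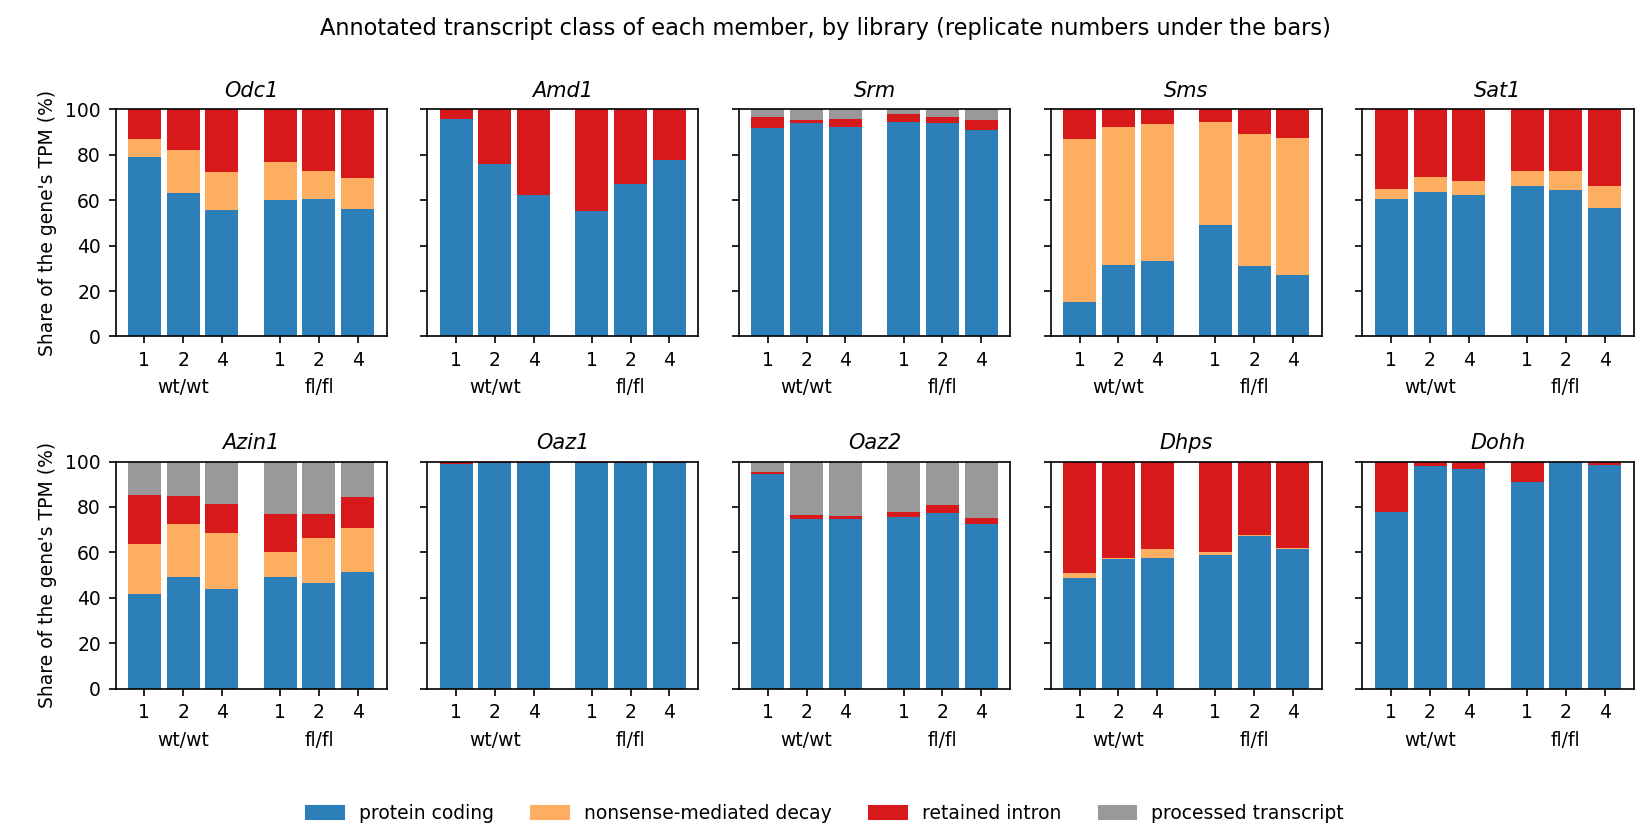
Share of each member's TPM (vertical axis, %) on annotated protein-coding, nonsense-mediated decay, retained-intron and processed transcripts in each library, with the replicate number and the genotype under the bars. Srm stayed between 90.7 and 94.3% coding in every library, while the coding share of Sms ranged from 15.3 to 49.2%.

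Myc binds DNA at the E-box CACGTG, a sequence that reads the same on both strands, so the promoters of the members were searched for it. RefSeq promoters of GRCm38.p6, from 250 bases before to 50 bases after a start site, were matched by symbol for 8 of the 10 members, all but Srm and Azin1. The E-box was found for 2 of these 8, Sms and Dohh, and for 3 of 21 matched genes of the wider list, Eif5a, Eif5a2 and Enoph1. It occurs in 7.15% of all 32851 promoters and for 8.09% of 27025 genes. The promoters of Odc1, Amd1, Oaz1, Oaz2, Sat1, Dhps, Mri1 and Mtap did not hold these letters in this window. The sites of Sms, Dohh and Eif5a are shown, as the members in which it was found and the eIF5A gene with the higher TPM, 5′ to 3′ along the strand of the gene with the E-box in capitals. It begins 196 bases before a start site of Sms (chrX:157492453-157492508, minus strand), at base 3 of Dohh (chr10:81384411-81384453, plus strand), and 74 and 178 bases before separate start sites of Eif5a (chr11:69921430-69921485 and chr11:69920778-69920833, minus strand).
Sms: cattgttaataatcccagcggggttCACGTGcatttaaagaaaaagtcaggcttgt
Dohh: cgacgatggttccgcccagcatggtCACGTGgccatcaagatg
Eif5a, upstream site: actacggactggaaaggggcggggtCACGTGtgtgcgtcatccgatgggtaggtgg
Eif5a, downstream site: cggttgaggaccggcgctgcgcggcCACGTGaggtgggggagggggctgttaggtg
Of the 5 genes with an E-box, Eif5a and Sms had lower CPM in every Myc fl/fl library without passing the threshold, and Dohh, Eif5a2 (log2 fold change 0.22) and Enoph1 (−0.22) overlapped between the genotypes.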

How the data were processed

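RNA-seq of sorted CD27SP NK cells was analysed, with 3 libraries for each of 2 genotypes. The authors deposited, for each library and transcript, an estimated count (not normalized), a TPM value and an effective length. The submitters' processing notes and the methods name Salmon and GRCh38, whereas the identifiers are mouse transcripts and the columns are those of kallisto. The tool version and the mouse build are not given in the sources used here.

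Estimated counts were summed by symbol through GENCODE M21 (100239 of 100583 transcripts matched, and the rest held 0.129 to 0.169% of counts), rounded, filtered by filterByExpr (15474 genes), scaled by TMM and tested by edgeR's quasi-likelihood test (4.0.16, R 4.3.3). Replicate number entered as a block, since the study describes a paired analysis. Adjusted p follows Benjamini and Hochberg over every gene tested. Standard errors and 95% intervals were derived from the quasi-likelihood F statistic and are approximate. CPM values are TMM-normalized. Shared sequence was counted as 31-base stretches of GENCODE M21 transcripts. Ratios used an exact permutation test.

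Every member, every tested gene of the wider list and Myc are named, and further pathway genes and 1 further marker are not reported here. The members, lists and tests were chosen with earlier results of these data known. The alternatives were the fit without the block, each replicate left out, the shallow library left out, DESeq2 (1.42.0), limma-trend (3.58.1), the largest adjusted p of the 3 tools, a looser threshold, other scalings and filters, offsets from effective lengths, and coding transcripts only. In simulated data with these depths, genes drawn at random over all expression levels were given a log2 fold change of 1, up or down. Of 15157 genes tested, 195 had this change. EdgeR with the block recovered 42.6% of them with 5 false calls, DESeq2 54.4% with 12 and limma-trend 36.9% with 3. No replicate effect was simulated, and these shares are not the recovery for the members. Counts of replicates of one genotype differed beyond counting noise, with a chi-square of 36.5 to 91.9 per degree of freedom.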

Additional observations from a re-analysis of the deposited data

How the results depend on the processing

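Srm kept its direction in all 16 alternatives (log2 fold change −1.22 to −1.05) and passed in 14, Mri1 passed in 16 of 16 (−1.67 to −1.31) and Mtap in 8 of 16 (−1.20 to −0.82). The number of members lower past the threshold was between 0 and 1 when a replicate was left out (0 without replicate 1) and 0 with offsets from effective lengths, and it was 1 in the other alternatives. The cause was not tested.

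Over all genes the counts, 135 lower and 198 higher, ranged from 10 to 114 lower and from 49 to 162 higher when 1 replicate was left out. They fell to 113 higher without the shallow library and the block, to 78 lower in limma-trend and by the largest adjusted p of the 3 tools, to 25 and 49 with library size only, to 8 and 24 with offsets and to 51 and 85 on coding transcripts only. They rose to 548 and 645 in DESeq2, to 523 and 689 at the limit of 0.05 with no minimum fold and to 378 and 524 without a filter.

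Some values changed sign, none of them past the threshold. Not all were near 0, as the main fit gave −0.35 for Amd2 and −0.27 for Odc1. With 1 replicate left out, the lowest and highest log2 fold changes were −0.47 and 0.0050 for Odc1, −0.034 and 0.35 for Dohh, −0.048 and 0.10 for Azin1, −0.73 and 0.20 for Amd2, −0.027 and 0.67 for Eif5a2, −0.020 and 0.17 for Mat2b, −0.19 and 0.094 for Apip, −0.039 and 0.32 for Atp13a3, −0.42 and 0.72 for Slc18b1 and −0.12 and 0.18 for Slc3a2, and the ratio differences were −0.17 and 0.105 for Odc1 to Oaz1 and −0.22 and 0.115 for Dhps to Dohh. Without the shallow library and the block, Dohh (−0.086), Apip (0.012) and Slc18b1 (−0.0011) changed sign. Slc3a2 did in DESeq2 (−0.0022), in limma-trend (−0.0015), with DESeq2 size factors (−0.0022) and with offsets (−0.17), and the ratio of Dhps to Dohh did on coding transcripts (0.011).

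Whether equal numbers mark paired mice is not stated. Deviations of same-numbered libraries from their genotype means correlated at −0.01, −0.02 and 0.05 across 15474 genes for replicates 1, 2 and 4, so the numbers were not shown to pair the libraries. Without the replicate block the log2 fold change of Srm was −1.13 (adjusted p = 0.00317, edgeR), Slc3a2 (−0.011) changed sign, and the members past the threshold stayed at 1 lower and 0 higher.

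The sum of members with pseudogenes of the same stem was not run, since no such row was found in the tables used. Precision is limited by 3 libraries per genotype, 1 of them shallow.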
